A study of Mus musculus with 6 samples.

Results

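Genes of the blood vessel wall were followed in bulk RNA of the mouse cerebellum at postnatal day 1 (P1). The set held 33 genes chosen by symbol, 26 of endothelial cells and 7 of mural cells (pericytes and smooth muscle), out of 54532 genes in the count table. Of these, all 33 entered the test, as did 17505 genes overall. The 3 control libraries came from Tox3f/f littermates without Cre, in which both *Tox3* copies carry loxP sites. The 3 mutant libraries came from Nestin-Cre;Tox3f/f mice, in which a nestin-driven Cre acts in neural progenitors and their descendants. All 3 mutant and none of the control animals carried Cre, so an effect of Cre cannot be told apart from that of the deletion. The vessel genes serve here as a reference for the share of cells outside the lineage in which the Cre is expected to act, and no measurement in these files tests where Cre was active.

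Brain endothelial cells line the vessels and are sealed to each other by tight junctions, and together with selective transporters these make up the blood-brain barrier. Pericytes sit on the outside of capillaries within the basement membrane, and smooth muscle cells wrap arteries and arterioles. Neural cells supply Wnt ligands that drive vessel growth into the brain and maintain the barrier. Several of the genes are not restricted to vessels: *Tjp1* is made in many epithelia and neural cells, *Slc2a1* and *Slco1c1* also in glia, and *Fli1* and *Ets1* also in blood cells.

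Library totals ranged from 15391854 to 17178478 counts, and the 33 genes took 0.101% to 0.109% of each. Levels are given as CPM, counts scaled to a common library total after trimmed mean of M-values (TMM) normalization, and 3 counts correspond to at most 0.196 CPM. *Tox3* itself read 64.3, 63.0 and 64.4 CPM in controls 1 to 3 and 55.3, 63.2 and 59.2 in mutants 1 to 3 (log2 fold change −0.11, SE 0.06, adjusted p = 0.252 by edgeR's quasi-likelihood test). Counts over the whole gene do not separate the deleted part, so this does not check the genotype labels. Control 1, mutant 1 and mutant 3 carried Y-chromosome transcripts and the other 3 libraries carried *Xist*, so the sexes were mixed within both groups. Nothing in the labels says which animals shared a litter. The p-values set the difference between groups against the spread among libraries of the same group, estimated in part from all genes.

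The vessel genes were near their control level as a group. In the test across all genes, a gene counted as called where its fold change exceeded 0.5 on the log2 scale in either direction and its adjusted p was under 0.01. By this rule 0 of the 33 genes were lower in mutants (background 3.63% of all genes tested) and 1, *Vtn*, was higher (background 3.03%). DESeq2 also called 0 lower and 1 higher. At an unadjusted p under 0.05, 5 were lower and 6 higher by edgeR, together 33.3% of the set against 37.1% of all genes tested. The fitted difference had a median of −0.04 on the log2 scale over the 33 genes, beside −0.01 over all genes tested, with 17 below and 16 above 0. This median covers lists that differed in sign. All 6 barrier transport and surface genes were fitted higher (median 0.20). Of the 6 endothelial transcription factors, 5 were fitted lower (median −0.34). The 95% interval of the difference lay inside −0.5 to 0.5 for 18 of the 33 genes. For the other 15 it reached beyond these limits, and for *Vtn* it lay wholly beyond.

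Without the fold threshold, 2 genes (6.06%) had an adjusted p under 0.01, against 13.8% of all genes tested. These were *Ets1*, lower, and *Vtn*, higher. At an adjusted p under 0.05, 4 were lower (*Cd34*, *Erg*, *Ets1* and *Sox18*), which is 12.1% of the set against a background of 12.9%. As many were higher (*Acta2*, *Slc2a1*, *Slco1c1* and *Vtn*), 12.1% against 12.2%. The 3 mutant values lay below all 3 control values for 5 genes (15.2%, background 20.1%) and above them for 8 genes (24.2%, background 20.4%). Each of these shares was close to or below its background except the last, which exceeded it by few genes.

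**Figure D1:**
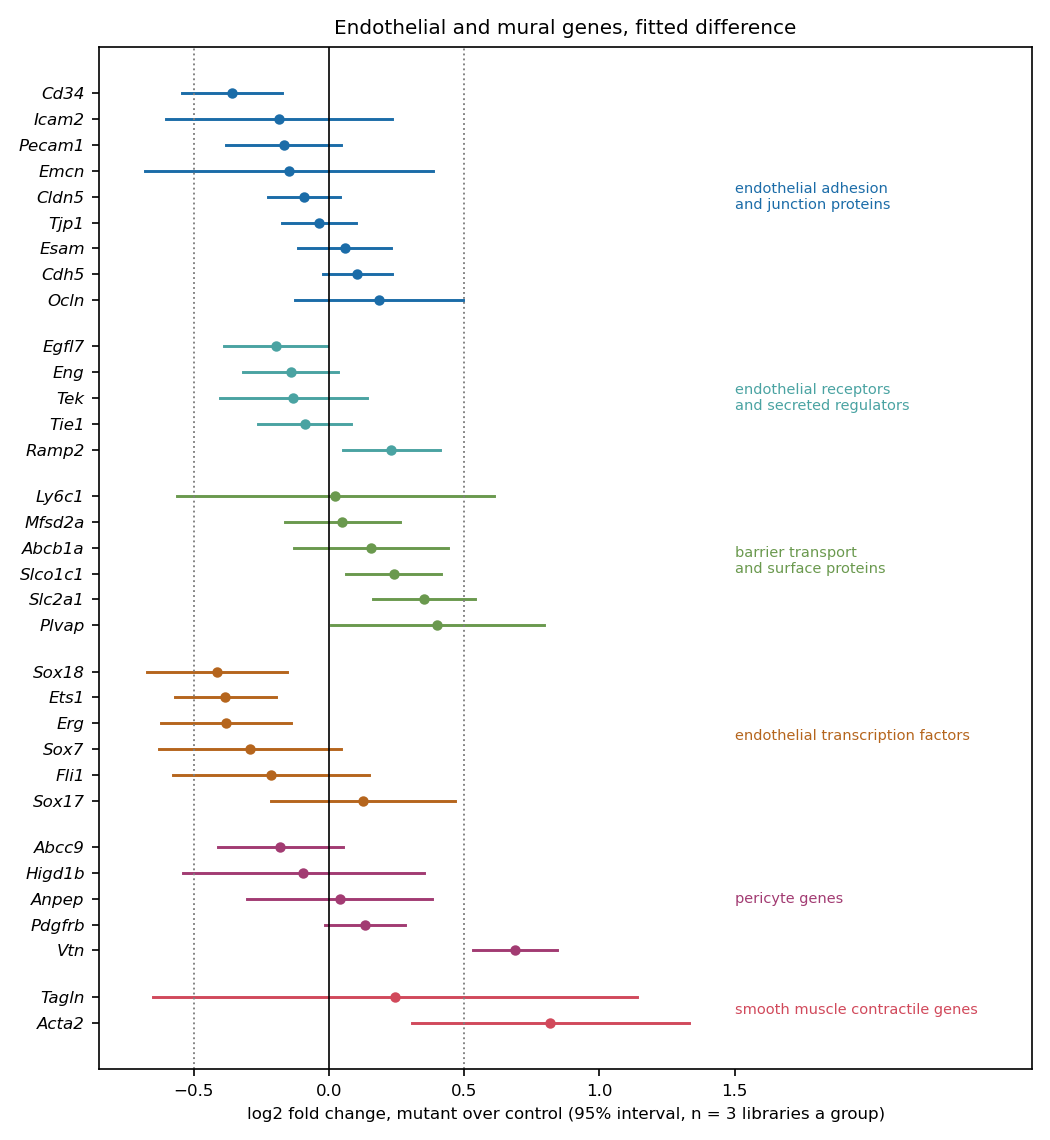
Fitted log2 fold change of each of the 33 genes (mutant over control, x axis) with its 95% interval, grouped by role; dotted lines mark −0.5 and 0.5. The interval of *Vtn*, 0.53 to 0.84, is the one that lies wholly beyond a dotted line.

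Summed over the 26 endothelial genes, the level was 900 CPM, 952 CPM and 862 CPM in the controls and 860, 892 and 886 CPM in the mutants, a ratio of means of 0.972. The mutant values overlapped the control values. Within this sum, the barrier genes had a ratio of 1.17 and the transcription factors 0.804, each without overlap between the groups. Summed over the 7 mural genes, the level was 152.0, 151.8 and 146.9 CPM in the controls and 196.7, 196.1 and 183.0 CPM in the mutants. The ratio was 1.28, and the groups did not overlap. Most of that difference was *Vtn*, which went from a mean of 59.3 to 95.5 CPM. In bulk RNA, fewer cells of a type and less RNA per cell cannot be told apart, and this holds for every level below.

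To compare genes with each other, the levels per length deposited as FPKM (fragments scaled by gene length and library total) were used. *Cldn5*, the main tight junction claudin of brain endothelium, had the highest control level at 70.5 ± 3.77 FPKM (SD, n = 3). It was followed by *Vtn* at 29.0 ± 1.66, *Tjp1* at 23.7 ± 1.85 and *Cdh5* at 16.1 ± 0.827 FPKM, and the control values of these 4 genes did not overlap from one to the next. At the low end, *Emcn* had 0.899 ± 0.286 FPKM and *Tagln* 0.440 ± 0.203 FPKM. Of the 32 pairs of neighbours in this order, 22 overlapped in their control values. All 33 genes, including the endothelial markers *Pecam1*, *Cdh5* and *Cldn5* and the pericyte marker *Pdgfrb*, were detected in every library.

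**Figure D2:**
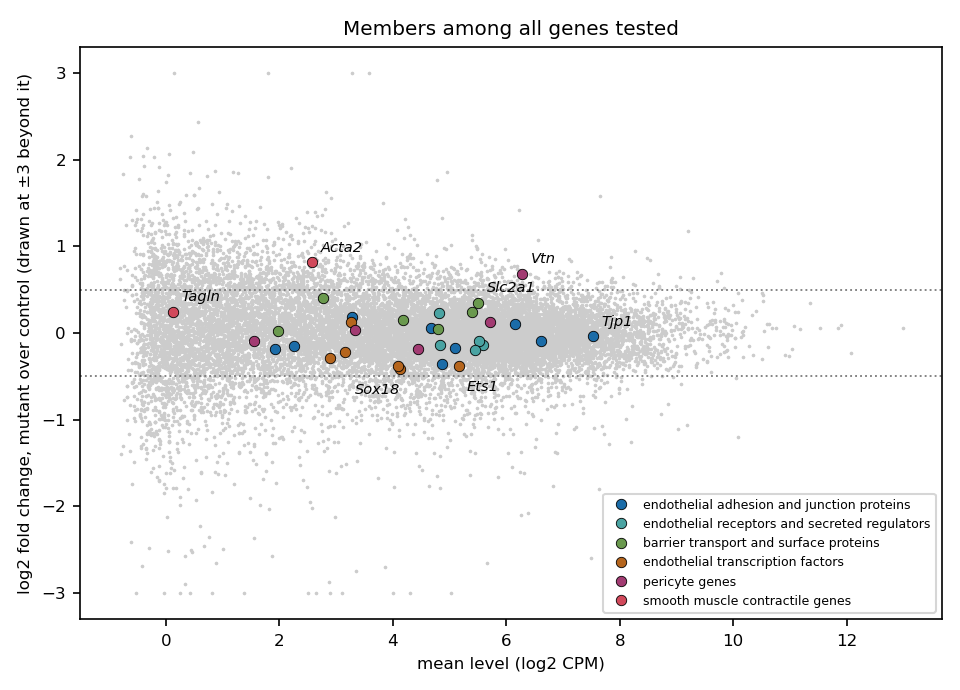
Each tested gene by mean level (x axis, log2 CPM) and log2 fold change (y axis, mutant over control); grey points are the 17505 tested genes and coloured points the 33 vessel genes by role. *Vtn* and *Acta2* lie above the upper dotted line at 0.5, and no vessel gene lies below −0.5.

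The adhesion and junction proteins (9 genes) showed 0 calls and a median of −0.09, which was 0.03 without control 2. *Cd34*, a sialomucin on the luminal face of endothelial cells, read 30.1, 34.7 and 32.7 CPM in the controls and 24.6, 25.5 and 25.97 CPM in the mutants. All 3 mutants lay below all 3 controls, and the difference was −0.36 (SE 0.08) with an adjusted p of 0.0104 by edgeR's quasi-likelihood test. *Cdh5* encodes VE-cadherin, the cadherin of endothelial adherens junctions. It read 67.7, 72.1 and 65.2 CPM in the controls and 73.5, 72.7 and 74.1 CPM in the mutants, slightly higher without overlap (0.10, SE 0.06, adjusted p = 0.216). *Cldn5* had a difference of −0.09 with an interval of −0.22 to 0.04, *Pecam1* (the adhesion molecule CD31) −0.17 and *Tjp1* (the junction scaffold ZO-1) −0.04, and in each the groups overlapped. *Esam* and *Icam2*, both immunoglobulin-type adhesion molecules, had 0.06 and −0.19. *Ocln*, the tight junction protein occludin, had 0.18 and *Emcn*, an endothelial sialomucin, −0.15, both with overlapping groups.

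Among the 5 receptors and secreted regulators, which had 0 calls and a median of −0.13 (−0.04 without control 2), 4 were fitted lower and 1 higher. *Ramp2*, the accessory protein of the adrenomedullin receptor, read 27.7, 25.1 and 24.3 CPM in the controls and 29.7, 30.2 and 30.6 CPM in the mutants (0.23, SE 0.08, adjusted p = 0.0638). The groups did not overlap, but *Ramp2* shares 33.4% of its exonic bases with *Vps25* on the same strand, so the reads may be split between them. *Egfl7*, a secreted endothelial protein, read 48.9, 45.4 and 45.4 CPM in the controls and 38.1, 45.2 and 38.4 CPM in the mutants (−0.20, SE 0.08, adjusted p = 0.119). Mutant 2 was within 1 CPM of controls 2 and 3. The angiopoietin receptor *Tek* (Tie2) had a difference of −0.13, its partner *Tie1* −0.09 and the TGF-beta co-receptor *Eng* −0.14, with adjusted p-values of 0.469, 0.430 and 0.223 by edgeR and overlapping groups.

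The 6 barrier transport and surface genes were all fitted higher in mutants, with a median of 0.20 and 0 calls. *Slc2a1*, the glucose transporter GLUT1, read 42.8, 38.2 and 38.7 CPM in the controls and 51.6, 46.3 and 54.9 CPM in the mutants. The groups did not overlap (0.35, SE 0.08, adjusted p = 0.0130 by edgeR). *Slco1c1*, a thyroxine transporter, read 35.6, 41.8 and 38.5 CPM in the controls and 44.6, 45.3 and 46.8 CPM in the mutants, again without overlap (0.24, SE 0.08, adjusted p = 0.0497). *Plvap*, the diaphragm protein of fenestrated vessels that is lost as the barrier matures, read 6.18, 6.71 and 4.43 CPM in the controls and 8.25, 7.62 and 6.98 CPM in the mutants. Its groups did not overlap, but the difference did not pass (0.40, SE 0.18, adjusted p = 0.129). The lipid transporter *Mfsd2a* had 0.05, the efflux pump *Abcb1a* 0.15 and the surface antigen *Ly6c1* 0.02, with overlapping groups.

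Choroid plexus, which holds fenestrated vessels and a GLUT1-bearing wall, was present to an uneven degree. *Ttr*, its most abundant transcript, read 131, 101.4 and 67.7 CPM in the controls and 181, 6.06 and 711 CPM in the mutants. *Slc2a1* was highest in mutant 3, the library with the most *Ttr*, while in mutant 2, with the least, it was still above all 3 controls. *Plvap* in mutant 3 was the lowest of the mutants. The part of choroid plexus in these differences was not tested.

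The endothelial transcription factors (6 genes) had the lowest median, −0.34, with 5 fitted lower and 1 higher. *Ets1*, an ETS factor of endothelial and lymphoid cells, read 36.6, 42.6 and 41.9 CPM in the controls and 30.5, 29.9 and 32.4 CPM in the mutants. All mutants lay below all controls (−0.38, SE 0.08, adjusted p = 0.00823 by edgeR), a size under the 0.5 needed for a call. Leaving out any library but control 1 raised its adjusted p above 0.01. Within the libraries with Y-chromosome transcripts it was 36.6 CPM in the control against 30.5 and 32.4, and within the others 42.6 and 41.9 CPM against 29.9.

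*Sox18*, a SOX factor of endothelial specification, read 18.8, 22.9 and 17.9 CPM in the controls and 14.2, 14.3 and 16.3 CPM in the mutants (−0.41, SE 0.12, adjusted p = 0.0264 by edgeR). *Erg*, an ETS factor that maintains endothelial identity, read 18.6, 21.03 and 17.9 CPM in the controls and 13.2, 14.9 and 16.0 CPM in the mutants (−0.38, SE 0.11, adjusted p = 0.0272). Neither overlapped between the groups. *Sox7* had −0.29 and *Fli1* −0.21 with overlapping groups, and *Sox17*, the third SOX factor of this family, had 0.13. No test was made of the list against other genes.

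**Figure D3:**
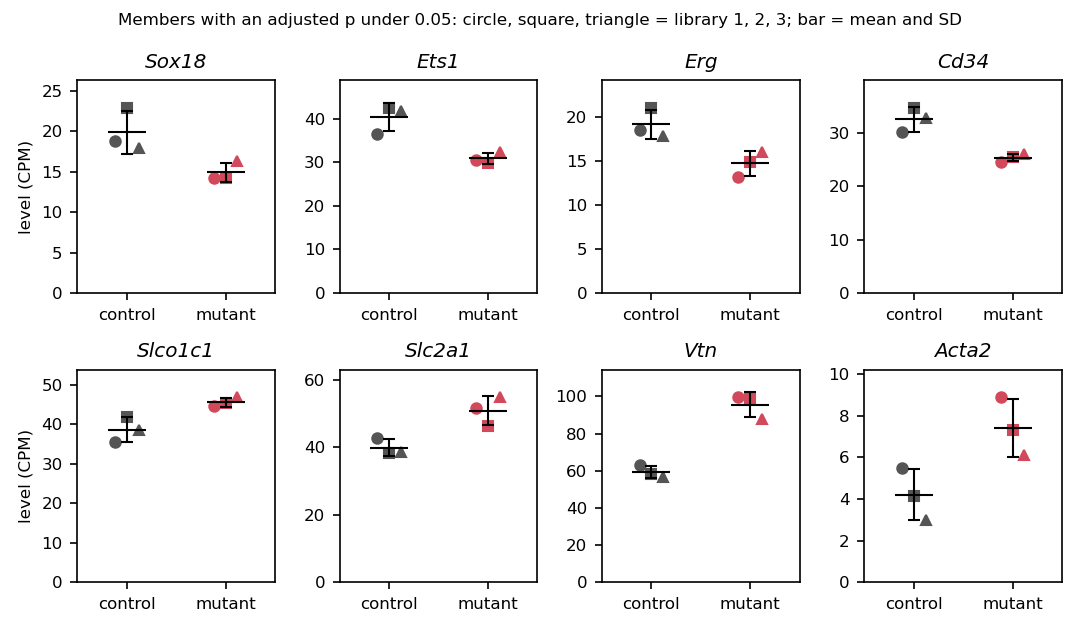
Level (CPM, y axis from 0) of the 8 vessel genes with an adjusted p under 0.05, by group; grey points are control libraries, red points mutant libraries, the symbol gives the library number and the bar the mean with its SD. In each panel the mutant points lie on 1 side of all control points.

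Among the pericyte genes (5 genes), *Vtn* was the exception. The list's median of 0.04 had no stable sign, at −0.06 without mutant 1, −0.05 without control 3 and 0.12 without mutant 2. It encodes vitronectin, an adhesive glycoprotein that brain pericytes secrete. *Vtn* read 63.1, 58.3 and 56.5 CPM in the controls and 99.5, 99.2 and 87.7 CPM in the mutants, a 1.61-fold higher level (0.69, SE 0.07, adjusted p = 0.000129 by edgeR's quasi-likelihood test). The lowest mutant stood well above the highest control. Within the libraries with Y-chromosome transcripts the control read 63.1 CPM and the mutants 99.5 and 87.7, and within the others 58.3 and 56.5 CPM against 99.2. The other pericyte genes did not show a rise of this size. *Pdgfrb*, the PDGF-B receptor by which pericytes are recruited, read 46.7, 51.4 and 52.1 CPM in the controls and 55.0, 54.4 and 55.4 CPM in the mutants (0.13, SE 0.07, interval −0.02 to 0.28, adjusted p = 0.180 by edgeR). Its groups did not overlap, and its interval and that of *Vtn* do not meet. The potassium channel subunit *Abcc9* had −0.18, the aminopeptidase *Anpep* 0.04 and *Higd1b* −0.10, with overlapping groups.

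Both smooth muscle genes were low. *Acta2*, smooth muscle actin, had 84, 64 and 47 counts in the controls and 154, 112 and 98 counts in the mutants. In CPM this was 5.47, 4.17 and 3.02 against 8.88, 7.30 and 6.10, without overlap (0.82, SE 0.23, interval 0.31 to 1.33, adjusted p = 0.0264 by edgeR). The adjusted p exceeded 0.01, so *Acta2* was not called, although its fitted difference was the largest of the 33. *Tagln*, the actin-binding protein SM22, read 0.716, 0.586 and 1.35 CPM in the controls and 0.923, 1.24 and 0.996 CPM in the mutants (0.24, SE 0.40, adjusted p = 0.696). At this depth its interval of −0.65 to 1.14 holds changes in both directions, and 62.4% of its exonic bases are shared with an antisense transcript, *Gm48529*.

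The stretch before the start site is shown for 3 genes: *Vtn* and *Cd34*, which had the smallest p-values among the 19 of 33 genes covered by the RefSeq promoter table, and the smooth muscle gene *Acta2*. Sequences are from RefSeq on GRCm38.p6, printed 5′ to 3′ on the strand of the gene and ending before the gene's start in both annotations. Capitals mark GGAA or its reverse complement TTCC, the core bound by ETS factors such as *Ets1*, *Erg* and *Fli1*. The *Vtn* stretch is chr11:78498870-78499090 (+), that of *Cd34* chr1:194938571-194938818 (+) and that of *Acta2* chr19:34255374-34255623 (−).
Vtn: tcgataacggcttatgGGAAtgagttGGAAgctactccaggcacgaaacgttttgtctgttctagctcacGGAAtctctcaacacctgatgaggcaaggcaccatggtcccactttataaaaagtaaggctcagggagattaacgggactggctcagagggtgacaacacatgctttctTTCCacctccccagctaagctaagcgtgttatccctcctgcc
Cd34: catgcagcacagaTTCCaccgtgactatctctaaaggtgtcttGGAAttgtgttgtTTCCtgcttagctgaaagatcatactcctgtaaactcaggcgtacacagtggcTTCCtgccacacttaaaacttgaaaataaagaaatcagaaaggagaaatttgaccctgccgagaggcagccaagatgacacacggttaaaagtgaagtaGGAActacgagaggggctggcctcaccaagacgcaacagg
Acta2: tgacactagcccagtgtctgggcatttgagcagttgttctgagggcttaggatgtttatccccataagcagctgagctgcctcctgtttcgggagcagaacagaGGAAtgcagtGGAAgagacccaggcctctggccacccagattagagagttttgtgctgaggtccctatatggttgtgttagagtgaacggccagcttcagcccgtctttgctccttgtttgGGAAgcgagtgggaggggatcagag

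*Vtn* held 4 matches, *Cd34* 5 and *Acta2* 3. This core is short, and 93.4% of the 32851 promoters in the table held at least 1 match within 250 bases, with a median of 3. Of the 25 promoters listed for vessel genes, 22 held one, also with a median of 3. The longer form GGAAGT or ACTTCC was in 7 of the 25 and in 19.7% of all promoters. These are letter matches on both strands and say nothing of binding.

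Other genes of the same cells, listed by role with earlier results known, gave a wider view. Of 111 such genes 105 were tested, of which 5 were called lower and 6 higher, with a median of 0.06. Over all genes tested, 3.63% were called lower and 3.03% higher. These backgrounds apply to the calls of each list below. Among 25 other endothelial genes tested, *S1pr1*, the receptor for sphingosine-1-phosphate that is also made by astroglia, was the 1 gene called, at 40.7, 43.0 and 44.6 CPM in the controls and 59.5, 59.2 and 64.3 CPM in the mutants (0.51). Its difference was close to the threshold and fell to 0.48 without control 1 and 0.47 without mutant 3. The list had a median of −0.06. Of 21 other barrier genes, *Fgfbp1*, an FGF-binding protein induced by Wnt signalling in brain endothelium, was called, rising from 0.716, 1.04 and 0.963 CPM to 4.44, 3.19 and 2.30 CPM (1.86, SE 0.32, adjusted p = 0.00251 by edgeR). This call held in 11 of 17 alternative fits. It was lost without control 1 (adjusted p = 0.0110 by edgeR), control 3 (0.0120) or mutant 1 (0.0130), and on FPKM. There the difference depended on the constant added, at 0.80 on log2(FPKM + 1) and 1.61 on log2(FPKM + 0.1). The median of that list was −0.02.

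Of the 16 genes of Wnt and Norrin signalling to the barrier, 3 were called higher and 1 lower, with a median of 0.13. The ligands *Wnt7a* and *Wnt7b*, which neural cells make and endothelial cells receive, were both higher. *Wnt7a* read 6.44, 5.47 and 6.68 CPM in the controls and 11.4, 9.19 and 9.40 CPM in the mutants (0.69, adjusted p = 0.00693 by edgeR). This call held in 9 of 17 alternative fits. It was lost on FPKM and without any 1 library but mutant 2, with adjusted p-values up to 0.0482. *Wnt7b* read 58.3, 54.7 and 62.0 CPM in the controls and 93.3, 80.2 and 82.4 CPM in the mutants (0.55, adjusted p = 0.000672), and its difference was 0.48 without mutant 1. *Tnfrsf19*, a Wnt target, was higher by 0.51, and *Nkd1*, a target that damps the pathway, was lower by a difference of −0.51. Both lay close to the threshold: *Tnfrsf19* was called in 13 of 17 alternative fits, not without control 1 (0.49) or mutant 3 (0.47), and *Nkd1* in 8 of 17, not without control 2, mutant 1 or mutant 3, though its adjusted p stayed under 0.01 in all 17. These transcripts are not made by endothelial cells alone, and their cell of origin was not measured.

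In the arterial and venous list (10 genes tested, median −0.10), *Hey1*, a Notch effector of arteries that neural progenitors also express, fell from 93.5, 93.8 and 86.6 CPM to 43.5, 39.4 and 44.3 CPM (−1.11, SE 0.07, adjusted p = 7.02e-06 by edgeR). *Unc5b*, a netrin receptor of arteries and also of neurons, fell from 55.8, 59.3 and 56.5 CPM to 31.6, 36.2 and 32.2 CPM (−0.78). Of 7 tip cell genes tested, *Apln*, the ligand apelin, was called lower (14.3, 19.3 and 16.7 CPM against 11.9, 9.19 and 7.91 CPM, −0.79), and the list had a median of 0.09. The call on *Apln* held in 10 of 17 alternative fits, with adjusted p-values up to 0.0554. It was lost on FPKM and without control 2, control 3, mutant 2 or mutant 3.

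Of 16 other pericyte genes, *Rgs4*, a G protein regulator found in pericytes and neurons, was called higher (66.7, 62.1 and 55.7 CPM against 102, 92.3 and 94.7 CPM, 0.65), with a median of 0.20 for the list. Of 10 other smooth muscle genes tested (median 0.20), the coactivator *Myocd* was called lower, with 37, 26 and 45 counts in the controls and 10, 7 and 7 in the mutants (−2.23, SE 0.35, adjusted p = 0.00146 by edgeR). It was not called on FPKM, where the difference depended on the constant added. It was −0.34 on log2(FPKM + 1) and −1.37 on log2(FPKM + 0.1). The contractile gene *Myh11*, named after its values were seen, had the opposite sign and was not called, at 3.39, 3.12 and 1.93 CPM in the controls and 7.73, 6.26 and 4.42 CPM in the mutants (1.13, adjusted p = 0.0121).

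**Figure D4:**
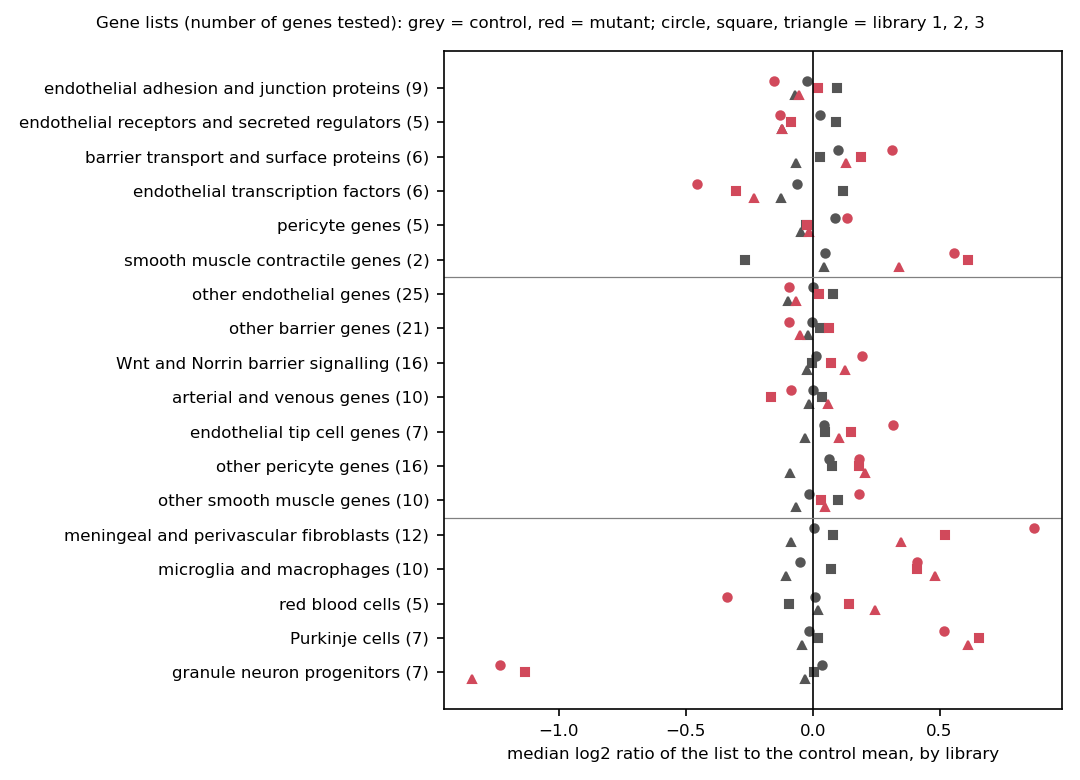
Median log2 ratio to the control mean (x axis) of each gene list except choroid plexus in each library. Grey is control, red is mutant, the symbol gives the library number, and numbers in brackets are genes tested. The choroid plexus list, not drawn, lay at 0.64, −0.79 and 1.73 in mutants 1 to 3. Among the vessel lists, the transcription factors lie at −0.23 to −0.46 and the 2 smooth muscle genes at 0.34 to 0.61 in the mutants. The granule neuron progenitor list lies between −1.13 and −1.34.

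Genes of other cells that a cerebellar dissection can hold were read beside the vessel genes. Of 12 genes of meningeal and perivascular fibroblasts, 4 were called higher and 0 lower (median 0.63), with *Col1a1* at 106, 89.7 and 97.0 CPM in the controls and 201, 161 and 166 CPM in the mutants and *Col1a2*, *Ogn* and *Slc22a6* higher by 0.77, 1.22 and 0.91. *Ogn* and *Slc22a6* lost their calls on FPKM, and *Slc22a6* also without control 2, control 3 or mutant 1. Their summed level was 939 to 987 CPM in the controls and 1078 to 1307 CPM in the mutants. *Dcn*, *Lum* and *Col3a1*, which mark the same cells, had differences of −0.05, −0.16 and −0.01. *Pdgfra*, which oligodendrocyte progenitors also express, had −0.45. Mutant 1 had the highest *Col1a1*, the highest *Acta2* and, by little, the highest *Vtn*. Mutant 2, with the lowest *Col1a1* of the mutants, had nearly as much *Vtn* (99.2 against 99.5 CPM), and mutant 3 had less (87.7 CPM). The part of fibroblasts in the mural differences was not tested.

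Of 10 genes of microglia and macrophages, 3 were called higher (*Mrc1* by 0.71, *C1qa* by 0.59 and *Pf4* by 0.95; median 0.49). These calls held in 11, 10 and 9 of 17 alternative fits, with adjusted p-values up to 0.0424, 0.0352 and 0.0285, and all were lost on FPKM. Without 1 library, *Mrc1* lost its call for control 1, control 3 or mutant 1, *C1qa* for control 1, control 2, mutant 1 or mutant 3, and *Pf4* for any but control 2. Their summed level was 126 to 135 CPM in the controls and 175 to 184 CPM in the mutants. For red blood cells 0 of 5 genes tested were called by edgeR, none at an unadjusted p under 0.05, and the median was 0.04. *Hba-a1* and *Alas2* had −0.28 and 0.10, both with overlapping groups. Without mutant 2, *Hba-a1* was called lower (−0.54, adjusted p = 0.00585 by edgeR), and without mutant 3 it was −0.09. Of 7 choroid plexus genes, *Otx2*, which granule neuron progenitors also express, was called lower (−1.16) and 0 were called higher. The other 6 were fitted higher, 3 of them at an unadjusted p under 0.05. The list had a median of 0.94, and its summed level ran from 131 to 199 CPM in the controls and from 35.6 to 778 CPM in the mutants.

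By their medians, the neural lists lay further from their control level than the 26 endothelial genes together did (−0.09). They also lay further than each endothelial list by role, of which the transcription factors were furthest at −0.34. So did the lists of fibroblasts, microglia and choroid plexus, with medians of 0.63, 0.49 and 0.94. The choroid plexus list was at −0.79 in mutant 2. Among the mural genes, the 2 smooth muscle genes had a median of 0.53, above that of microglia. All 7 genes of granule neuron progenitors were called lower (median −1.25), with *Atoh1*, the factor that specifies them, at 32.6, 32.0 and 30.9 CPM in the controls and 0.577, 0.261 and 0.249 CPM in the mutants. *Barhl1*, *Mdga1* and *Gli2* had −2.59, −1.09 and −1.38. Of 7 Purkinje cell genes 5 were called higher (median 0.63), and *Calb1* read 333, 319 and 292 CPM in the controls and 456, 527 and 523 CPM in the mutants. *Skor2*, *Car8* and *Pcp2* were higher by 0.78, 0.63 and 0.63, and *Pcp2* shares 51.5% of its exonic bases with *Pet100* on the opposite strand.

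When libraries were scaled to the geometric mean count of the 26 endothelial genes in place of TMM, the granule neuron progenitor median was −1.21 with 6 of 7 genes called lower, and the Purkinje median was 0.67 with the same number called, 5. The median of all genes tested shifted by 0.04. The calls over all genes went from 635 lower and 530 higher (54.5% lower) to 525 lower and 660 higher (44.3% lower), of which 517 and 522 were the same genes. *Vtn* was again called and *Ets1*, itself among the 26 genes, no longer had an adjusted p under 0.01. Each endothelial gene is compared here with a scale that includes it. This scaling was chosen after the data were seen, and it takes the endothelial level as equal in both groups by construction.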

How the data were processed

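Bulk poly-A RNA from P1 cerebella of 3 Tox3f/f control and 3 Nestin-Cre;Tox3f/f mutant mice was sequenced as paired-end reads. The authors removed adapter, undetermined and low-quality reads, aligned to mm10 with HISAT2 2.0.5 and deposited counts per gene from featureCounts 1.5.0-p3. The deposited FPKM values come from the same counts, which the authors divided by gene length and library total. The strand setting is not given in the sources used here, so genes that overlap may share reads. Groups came from the labels.

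Genes passing filterByExpr were fitted on the whole table in R 4.3.3 with edgeR 4.0.16 (TMM, quasi-likelihood test, Benjamini-Hochberg adjustment over all 17505 genes, 99.8% of counts) and no covariate. SE is the log2 fold change divided by the root of F. The fit was tested on simulated data. DESeq2 1.42.0 and limma 3.58.1 on log2 FPKM were alternatives. With 3 against 3 libraries an exact permutation test cannot go below 0.1, so p-values rest on the model. Same-group libraries differed beyond sampling noise (chi-square per gene 3.64 to 10.1), so none was a copy.

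All 33 members are named. Values in every library are given for those with an adjusted p under 0.01, at least the 2 smallest p-values per role, and further non-overlapping members. Of other lists, called genes (up to 4 by p) or else the 2 with the smallest p are named, and any other gene was chosen after its values were seen. The members and lists were chosen with earlier results of these data known. Exonic overlaps used GENCODE M21, and 9 members had one. After *Tagln* and *Ramp2*, the largest shares were 16.85% of *Sox17*, 10.09% of *Abcb1a* and 7.37% of *Egfl7*.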

Additional observations from a re-analysis of the deposited data

How the results depend on the processing

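*Vtn* was called under every alternative run (log2 fold change 0.65 to 0.74), and 0 members were called lower in any with the fold threshold. Without the filter on low counts, and with a replicate block, 2 members were called higher, *Acta2* and *Vtn*. The replicate numbers do not mark a known pairing: the correlations of same-numbered deviations were 0.51, 0.59 and −0.35, and control 3 correlated best with mutant 2. Deviations were taken from the mean of each group, so a library's correlations with all 3 of the other group cannot share 1 sign. Control 1 correlated at 0.51 and 0.56 with mutants 1 and 3 and at −0.71 with mutant 2. Controls 2 and 3 correlated at 0.59 and 0.42 with mutant 2 and negatively with mutants 1 and 3. The libraries split in the same way by Y-chromosome transcripts and *Xist*, and the cause of these correlations was not tested. At an adjusted p under 0.05 with no fold threshold, 4 members were lower and 4 higher, and 2252 and 2136 of all genes. Limma-trend called 360 genes lower and 243 higher on log2(FPKM + 1), 416 and 297 on log2(FPKM + 0.1), and 286 and 176 without the filter on low values. Leaving out 1 library gave 492 to 778 genes lower and 349 to 569 higher, both lowest without mutant 3 and highest without mutant 2, and 1 member called higher each time.

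*Ets1* kept an adjusted p under 0.01 in 7 of 17 alternative fits, with values from 0.000877 to 0.0680. It was lost with library size alone, on FPKM, under the endothelial scaling and without any 1 library but control 1. *Acta2* ranged from 0.63 to 1.05.

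Small differences changed sign. Without 1 library, *Tjp1* ranged from −0.0860 to 0.0250, *Emcn* from −0.28 to 0.14, *Ly6c1* from −0.22 to 0.17, *Anpep* from −0.0587 to 0.19, *Sox17* from −0.0100 to 0.22, *Mfsd2a* from −0.000282 to 0.15 and *Alas2* from −0.12 to 0.29. With a covariate for Y-chromosome transcripts *Ly6c1* was −0.0877 and *Anpep* −0.0532, and under the endothelial scaling *Tjp1* was 0.0106. Among list medians, the mural one was 0.02 without control 2, the pericyte one −0.05 with that covariate, and the smooth muscle one 0.82 with at least 10 counts in every library, which leaves *Acta2* alone. The cause of these changes was not tested. Depth limits *Tagln*, *Higd1b*, *Icam2*, *Emcn*, *Ly6c1* and *Acta2* most, whose intervals are the widest or rest on the fewest counts.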
